A study of Mus musculus with 24 samples.

Results

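The genes described here handle serotonin that has already been released. They comprise the serotonin transporter Slc6a4, the vesicular monoamine transporter Slc18a2, the monoamine oxidases Maoa and Maob, and the receptors Htr1a, Htr1b, Htr2c and Htr7. Every probe set annotated to 1 of these 8 symbols was taken, which gave 13 of the 45101 probe sets on the array and 8 of the 18194 genes tested. Each gene was read from its brightest probe set by mean signal, and the other 5 (for Maoa, Htr1a, Htr1b, Htr2c and Htr7) were read beside it.

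Serotonin is made by raphe neurons, whose axons reach the thalamus and cortex. In newborn rodents the relay neurons of the sensory thalamus do not make serotonin but transiently use Slc6a4 to take it up through the plasma membrane and Slc18a2 to load it into vesicles, while monoamine oxidases break it down inside the cell. Htr1b is a Gi-coupled receptor found on thalamocortical axons, where it dampens glutamate release, and mice with excess serotonin at this age are known for poorly formed barrels in the somatosensory cortex.

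Tissue came from the ventrobasal complex (VB, the somatosensory relay) and the dorsal lateral geniculate nucleus (dLGN, the visual relay) of C57BL/6 mice at postnatal day 4 (P4) and at the day of birth (P0). The embBE mice had lost both eyes to cauterization in the uterus at embryonic day 14.5, whereas controls kept theirs. There were 3 embBE and 3 control arrays for VB P4, VB P0 and dLGN P4, and 4 embBE and 2 control arrays for dLGN P0, making 24 in 8 groups. The study states that each array carried RNA pooled from littermates of 1 condition, amplified in 2 rounds, and values are log2 signals after RMA, the authors' background correction and normalization. In pooled tissue, fewer cells of a type and less RNA per cell cannot be told apart. Each label gives a number such as 39_3 (its meaning is not stated), and 11 numbers occur on both a VB and a dLGN array.

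The tissue was checked against marker lists, set beside 18 genes not known to be used in brain, whose mean signals ran from 3.05 to 7.03. Of 16 markers of thalamic relay neurons, 14 had a mean above that range. Among them was Slc17a6, the vesicular glutamate transporter of these neurons (11.09 to 13.32). It averaged higher in VB than in dLGN in embBE mice (12.62 against 11.87 at P0, 13.10 against 12.35 at P4) and controls (12.32 against 11.87, 12.54 against 12.24). Relay markers did not all run this way: Hs6st2 averaged 9.53 to 10.31 in VB groups, against 12.24 to 12.66 in dLGN groups. Gbx2, a thalamic transcription factor, had group means inside the range at P4 (5.44 to 6.86) and in dLGN of controls at P0 (6.82). The other P0 groups averaged 7.64 to 7.975, and the lowest array had 4.57. Of 17 GABAergic markers of the nuclei around the relay nuclei 1 had a mean above it (Gata2), but Gad1, an enzyme that makes GABA, ranged from 4.20 to 9.97 and Tal1, a transcription factor, from 5.46 to 9.28. The median of these 17 was lower in VB than in dLGN in all 4 comparisons of nuclei (-0.38 to -0.13), with 1 called lower in embBE mice at P4 and 1 in controls at P0. Of 12 genes of serotonin synthesis and raphe identity 3 had a mean above the range, Qdpr, Pts and Gata2, none of them limited to raphe neurons, whereas Tph2, the enzyme that starts serotonin synthesis in raphe neurons, stayed between 3.42 and 4.11. The part of relay neurons and of GABAergic cells in the differences between nuclei was not tested. Libraries were not alike in quality. The gap between the 3′ and the 5′ probe sets of beta-actin, which widens as amplified RNA gets shorter, had a median of 2.27 over VB arrays (1.95 to 4.29) and 3.76 over dLGN arrays (2.20 to 4.27), and its part in the differences between nuclei was not tested. Each array had either high Xist (10.02 to 11.53, with Eif2s3y, a Y-linked gene, at 3.46 to 3.86; 14 arrays) or low Xist (6.82 to 7.66, with Eif2s3y at 7.80 to 9.32; 10 arrays). No array held both patterns, as a pool of both sexes would, so whether an array stands for several pups or for 1 was not settled. All 6 control arrays at P4 had high Xist and all 5 at P0 had low Xist, so sex and age cannot be told apart in controls taken alone. The embBE groups held both kinds, so each was compared with controls of only 1 kind. Sex is thus in part confounded with eye loss, and Maoa, Maob and Htr2c lie on the X chromosome.

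The array gives no detection calls, and signals of different probe sets do not compare amounts of RNA between genes. Slc6a4, Slc18a2, Maoa, Htr1b and Htr7 had mean signals from 9.12 to 10.08, above the highest signal (7.48) of any of the 18 genes not known to be used in brain. Htr1a (mean 6.57), Maob (6.34) and Htr2c (6.18) lay inside the range of means of those 18 genes. Signals of these 3 genes could not be set apart from background here. The spread of each gene over all arrays differed: Slc6a4 spanned 3.26 log2 units, Htr2c 3.06, Maob 2.31, Htr1b 1.88, Slc18a2 1.82, Htr7 1.52, Maoa 1.15 and Htr1a 0.48.

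**Figure D1:**
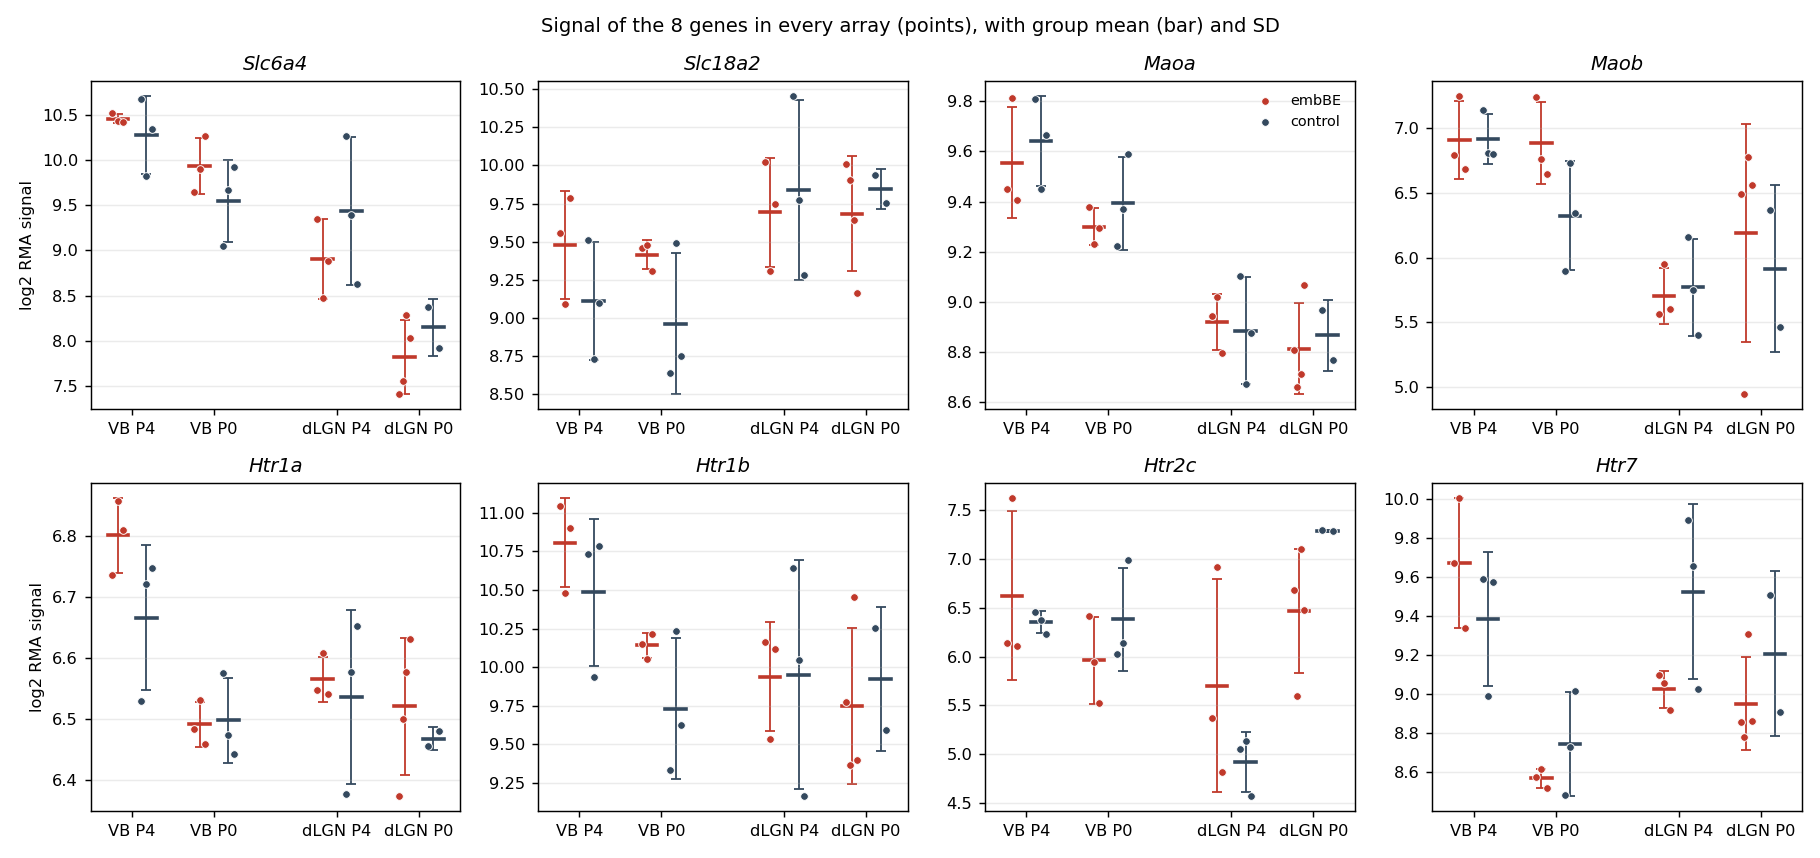
Log2 RMA signal (vertical axis) of the 8 genes in each of the 24 arrays, 1 panel per gene with its own scale. Points are arrays, bars are group means with SD, embBE is red and control is dark blue. Slc6a4 and Maoa lie higher in VB than in dLGN, whereas embBE and control points overlap in all but 1 pair of groups (Htr2c, dLGN P0, with 2 control arrays). The share of all genes without overlap was not counted.

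Most of the calls among the 8 genes were between the nuclei: Slc6a4, the transporter that takes serotonin up, and Maoa, an oxidase, were higher in VB than in dLGN of embBE mice at both ages. Maoa was also higher in VB of controls at P4, and Maob in VB of embBE mice at P4. The vesicular transporter and the receptors did not pass the test in either direction at their main probe sets. The nuclei were compared within each age and treatment with limma over the 24 arrays, and a gene was called at a Benjamini-Hochberg adjusted p under 0.05. In embBE mice 2 of the 8 genes were called at P0 (Slc6a4 and Maoa; 7.46% of all genes were called) and 3 at P4 (Slc6a4, Maoa and Maob; 8.44% of all genes). In controls none was called at P0 (1.56% of all genes) and Maoa was called at P4 (3.21% of all genes). At P0 in controls 3 of the 8 had an unadjusted p under 0.05 (limma), as had 1654 of all 18194 genes. All 6 calls were higher in VB. How many of all genes had groups without overlap was not counted in any comparison. Lack of overlap between nuclei or ages is therefore a description only wherever it is given. The median difference over the 8 genes was 0.18 in embBE mice at P0 (all genes -0.06), -0.08 in controls at P0 (all genes 0.03), 0.76 in embBE mice at P4 (all genes -0.09) and 0.65 in controls at P4 (all genes -0.03).

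Slc6a4, which ends serotonin signalling by taking the transmitter back into cells, had signals of 9.64, 9.90 and 10.26 in VB of embBE mice at P0, against 7.41, 7.55, 8.29 and 8.03 in their dLGN. In controls at P0 it had 9.05, 9.67 and 9.92 in VB, against 8.37 and 7.92 in dLGN. At P0 every VB array lay above every dLGN array, whatever the treatment. The log2 difference was 2.12 (SE 0.32, a 4.34-fold signal; adjusted p = 3.5e-04) in embBE mice and 1.40 (SE 0.38; adjusted p = 0.0753) in controls. At P4 the values were 10.52, 10.43 and 10.42 in VB of embBE mice, against 9.35, 8.48 and 8.88 in their dLGN. In controls at P4 they were 10.67, 9.82 and 10.34 in VB, against 10.27, 9.39 and 8.63 in dLGN. The embBE groups did not overlap at P4, whereas dLGN array 24_2 of the controls reached into the VB range. The difference was 1.55 (SE 0.34; adjusted p = 0.00854) in embBE mice and 0.85 (SE 0.34; adjusted p = 0.262) in controls. Slc6a4 was higher in VB in 11 of the 11 label numbers that occur in both nuclei, by 0.40 to 2.34 with a median of 1.61. The gap was 0.72 wider in embBE than in control mice at P0 (SE 0.50, unadjusted p = 0.163) and 0.71 wider at P4 (SE 0.48, unadjusted p = 0.158). The embBE gap at P4 just missed the threshold without embBE dLGN array 36_2 (adjusted p = 0.0549), and the control gap at P4 was 1.27 without control dLGN array 24_2 (adjusted p = 0.0287) and 0.45 without control dLGN array 40_1. The control gap at P0 passed without control VB array 35_1 (1.64, adjusted p = 0.0413). These arrays differed in RNA quality. The 3′ to 5′ gap of beta-actin was 2.205 on dLGN array 24_2, the lowest of the dLGN arrays, and 4.129 on dLGN array 40_1. On VB array 35_1 it was 4.294, the highest of the VB arrays. The part of RNA quality in these shifts was not tested.

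**Figure D2:**
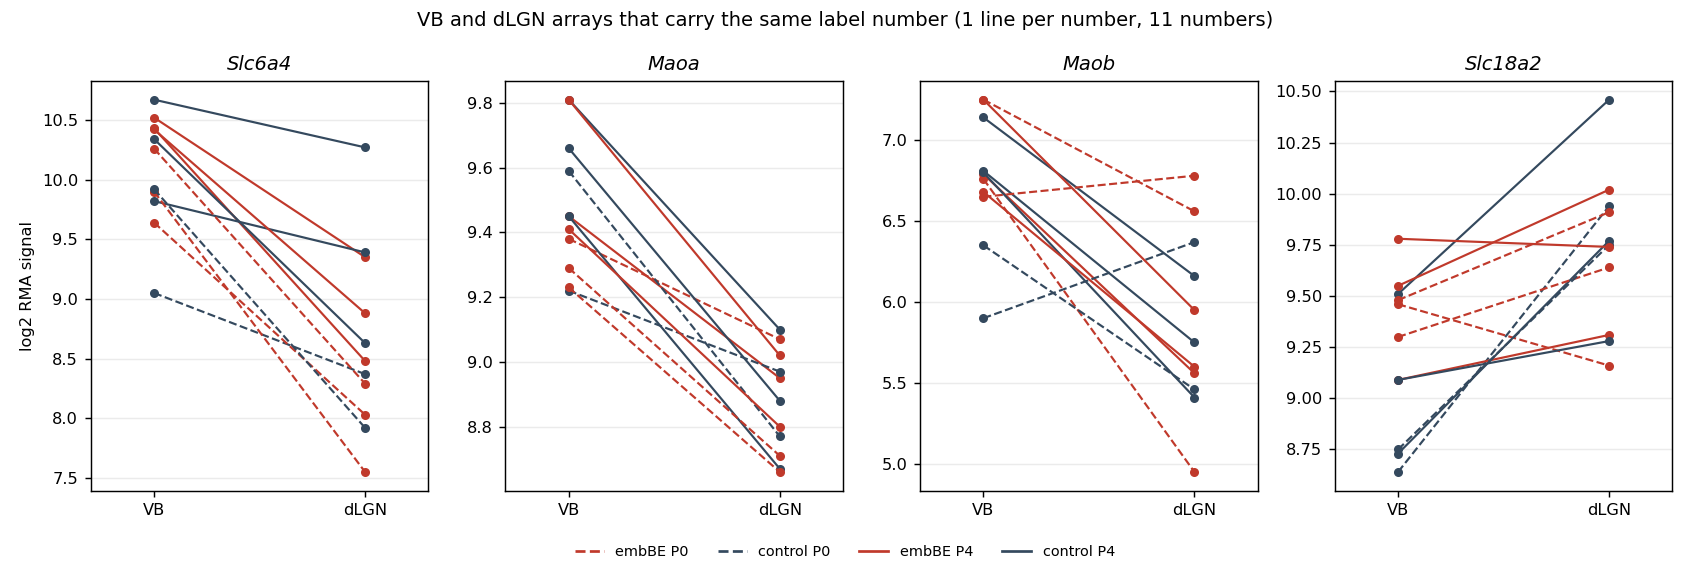
Log2 RMA signal of Slc6a4, Maoa, Maob and Slc18a2 in VB (left) and dLGN (right), with a line for each of the 11 label numbers that occur in both nuclei. Red is embBE, dark blue control, dashed P0 and solid P4. All 11 lines fall towards dLGN for Slc6a4 and Maoa, 9 fall for Maob, and 9 climb for Slc18a2.

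Maoa, the oxidase that prefers serotonin as its substrate and sits on the X chromosome, moved by less but with little scatter. At P0 it had 9.38, 9.23 and 9.29 in VB of embBE mice, against 8.81, 8.66, 8.71 and 9.07 in their dLGN. Controls at P0 had 9.22, 9.37 and 9.59 in VB, against 8.97 and 8.77 in dLGN. No dLGN array reached a VB array of the same age and treatment. The difference was 0.49 (SE 0.14; adjusted p = 0.0336) in embBE mice and 0.53 (SE 0.16; adjusted p = 0.139) in controls. At P4 Maoa had 9.45, 9.81 and 9.41 in VB of embBE mice, against 8.95, 9.02 and 8.80 in their dLGN. Controls at P4 had 9.81, 9.45 and 9.66 in VB, against 9.10, 8.67 and 8.88 in dLGN. The groups again stood apart. The difference was 0.64 (SE 0.15; adjusted p = 0.0113) in embBE mice and 0.76 (SE 0.15; adjusted p = 0.00355) in controls. In all 11 label numbers Maoa was higher in VB, by 0.26 to 0.82. A weaker second probe set of Maoa gave the same direction with a wider gap, 1.39 and 1.23 in embBE mice at P0 and P4 (adjusted p = 0.0069 and 0.0191) and 1.02 and 1.38 in controls (adjusted p = 0.235 and 0.014). The call in embBE mice at P0 was lost without any 1 of 5 arrays (dLGN 39_2 and 39_3, VB 35_3, 39_3 and 39_4), and that at P4 without dLGN 40_3 or VB 36_2, with the difference between 0.35 and 0.94 over all settings at P0. The call in controls at P4 was lost with only the 2 groups in the fit (adjusted p = 0.115).

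Maob, the second oxidase, lies beside Maoa on the X chromosome and is known from serotonergic neurons and astrocytes. At P4 it had 6.79, 7.25 and 6.68 in VB of embBE mice, against 5.56, 5.95 and 5.60 in their dLGN. In controls at P4 it had 7.14, 6.81 and 6.80 in VB, against 6.16, 5.75 and 5.41 in dLGN. Neither pair overlapped, and the signals of all 4 groups are low. The difference was 1.20 (SE 0.36; adjusted p = 0.0445) in embBE mice and 1.15 (SE 0.36; adjusted p = 0.103) in controls. At P0 the nuclei overlapped, with differences of 0.69 (SE 0.34; adjusted p = 0.18) in embBE mice and 0.41 (SE 0.40; adjusted p = 0.925) in controls. The call at P4 did not outlast leaving out any 1 of its 6 arrays (1.03 to 1.33), the label number as a fixed block (adjusted p = 0.0536) or a sex covariate (adjusted p = 0.0526). Astrocyte and radial glia markers were measured beside it: of 11, 2 were called higher and 1 lower in VB of embBE mice at P4. The log2 of their summed signals, which the brightest markers dominate, was 15.18 to 15.19 in VB, against 14.65 to 14.86 in dLGN. In embBE mice at P0, where Slc6a4 and Maoa were called, 4 of these markers were higher and 1 lower in VB. The log2 of their summed signals was 14.49 to 14.57 in VB, against 13.33 to 14.13 in dLGN. In controls at P4, where Maoa was called, 1 of the markers was higher. The part of these cells in the 3 genes' differences was not tested.

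Slc18a2, which loads monoamines into synaptic vesicles, ran the other way in controls without passing the test. It had 8.64, 9.49 and 8.75 in VB of controls at P0, against 9.94 and 9.75 in dLGN, and 9.51, 8.73 and 9.09 in VB at P4, against 10.46, 9.77 and 9.28 in dLGN. The nuclei did not overlap at P0 and overlapped at P4. The difference was -0.88 at P0 (SE 0.33; adjusted p = 0.301) and -0.73 at P4 (SE 0.29; adjusted p = 0.265). In embBE mice VB averaged 9.41 ± 0.10 (SD, n = 3) at P0, against 9.68 ± 0.38 in dLGN (n = 4), and 9.47 ± 0.35 at P4, against 9.69 ± 0.36 (n = 3 each), so the embBE nuclei overlapped. Over the 11 label numbers Slc18a2 was lower in VB in 9. The transporter of the plasma membrane and that of the vesicle had opposite signs in each of the 4 comparisons of nuclei. Slc6a4 was past the threshold in 2 of them and Slc18a2 in none.

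Windows around the start sites of Slc6a4 and Maoa, which differed in the same direction, and of Slc18a2, which had the opposite sign, are printed so that both genes called between nuclei at both ages can be set beside the vesicular transporter, which was not called. Each window runs from 250 bases before to 50 bases after the start that RefSeq annotates on GRCm38.p6, 5′ to 3′ on the strand of the gene, which is the forward strand for all 3: chr11:76998347-76998646 for Slc6a4, chrX:16619448-16619747 for Maoa and chr19:59260628-59260927 for Slc18a2. Capitals mark the GC box GGGCGG on either strand (CCGCCC where the motif lies on the other strand) and the cyclic AMP response element TGACGTCA, which reads alike on both strands.
Slc6a4: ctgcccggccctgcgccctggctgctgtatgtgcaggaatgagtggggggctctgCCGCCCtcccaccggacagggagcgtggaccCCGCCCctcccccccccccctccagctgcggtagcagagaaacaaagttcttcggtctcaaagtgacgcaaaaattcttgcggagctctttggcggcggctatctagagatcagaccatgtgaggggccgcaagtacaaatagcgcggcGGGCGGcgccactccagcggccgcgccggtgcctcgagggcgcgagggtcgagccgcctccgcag
Maoa: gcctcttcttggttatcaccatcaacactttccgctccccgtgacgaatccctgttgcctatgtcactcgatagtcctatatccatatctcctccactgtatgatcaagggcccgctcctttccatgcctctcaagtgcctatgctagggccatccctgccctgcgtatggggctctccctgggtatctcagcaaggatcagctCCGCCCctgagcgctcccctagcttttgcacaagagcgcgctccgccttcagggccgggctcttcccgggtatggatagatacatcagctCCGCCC
Slc18a2: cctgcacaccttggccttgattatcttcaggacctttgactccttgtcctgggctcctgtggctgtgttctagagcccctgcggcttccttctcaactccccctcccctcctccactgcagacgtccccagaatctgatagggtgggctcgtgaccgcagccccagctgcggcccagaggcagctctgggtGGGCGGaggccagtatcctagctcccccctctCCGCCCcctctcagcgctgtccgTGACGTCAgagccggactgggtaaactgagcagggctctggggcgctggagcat
The GC box occurs 3 times in the Slc6a4 window and 2 times in each of the others, and it is found in 35.7% of 32851 windows of this length. The cyclic AMP element occurs 1 time, at the start site of Slc18a2, and in 1.79% of all windows. The motif TATAAA, searched on both strands, occurs in none of the 7 windows found for the 8 genes (Maob was not matched) and in 13.6% of all windows. GC content was 67.7% in the Slc6a4 window, 57.7% in that of Maoa and 64% in that of Slc18a2, against a median of 52.7% over all windows. These are matches of letters and say nothing of which factor binds.

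Among the receptors no difference between nuclei passed the test at the main probe set of a gene. Htr1b had 11.04, 10.48 and 10.90 in VB of embBE mice at P4, against 10.16, 9.53 and 10.12 in their dLGN, a difference of 0.87 (SE 0.34; adjusted p = 0.0981). Controls at P4 overlapped (10.73, 9.94 and 10.79 in VB, against 10.64, 10.04 and 9.17 in dLGN). The second probe set of Htr1b did not follow the first, with -0.31 (SE 0.17; adjusted p = 0.185) in embBE mice at P4. Htr7, a Gs-coupled receptor, had 9.67, 10.004 and 9.34 in VB of embBE mice at P4, against 9.10, 9.06 and 8.92 in their dLGN, a difference of 0.65 (SE 0.23; adjusted p = 0.0703), while its difference in controls at P4 was -0.14 (SE 0.23). At P0 the dim second probe set of Htr7 was lower in VB of embBE mice (-0.50, SE 0.14; adjusted p = 0.045 over every probe set with 1 symbol), where the main one gave -0.38 (SE 0.21; adjusted p = 0.23). Htr1a, a Gi-coupled receptor, differed by 0.24 in embBE mice at P4 (SE 0.10; adjusted p = 0.104), and its second probe set by -0.32 (SE 0.13; adjusted p = 0.103). Probe sets of Htr1a and Htr1b thus gave opposite signs for the same comparison.

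Htr2c is a Gq-coupled receptor on the X chromosome, and none of its differences between nuclei passed the test. Controls had 6.03, 6.14 and 6.99 in VB at P0, against 7.29 and 7.28 in dLGN, and 6.46, 6.37 and 6.23 in VB at P4, against 5.05, 5.14 and 4.57 in dLGN. Neither pair overlapped, with dLGN on top at P0 and VB on top at P4. The difference was -0.91 at P0 (SE 0.52; adjusted p = 0.702) and 1.44 at P4 (SE 0.47; adjusted p = 0.12). The change between ages was 2.34 larger in VB than in dLGN of controls (SE 0.70, unadjusted p = 0.003, adjusted p = 0.606) and 1.43 larger in embBE mice (SE 0.64, unadjusted p = 0.037). With the Xist class of each array in the fit these were 2.34 in controls (adjusted p = 0.61) and 1.34 in embBE mice (adjusted p = 1).

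**Figure D3:**
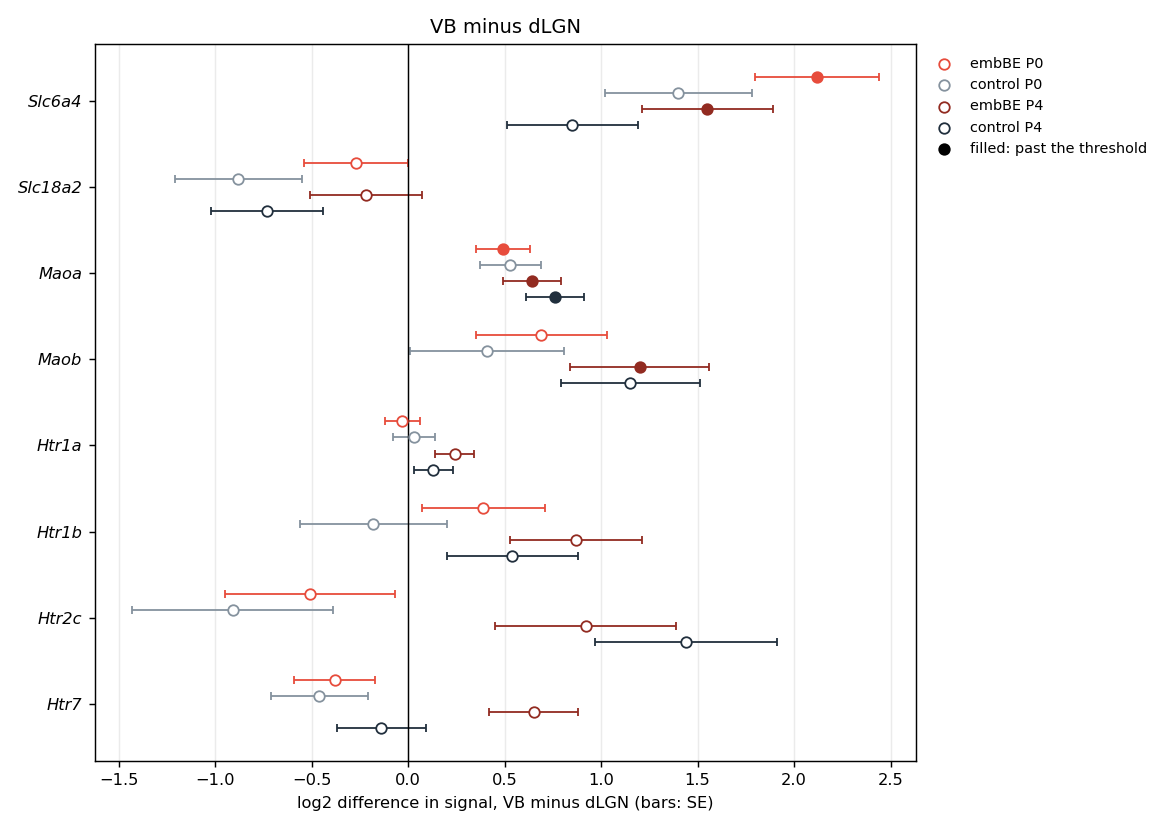
Difference in log2 signal, VB minus dLGN (horizontal axis), for the 8 genes in embBE and control mice at P0 and P4, with the SE of the limma fit. Filled points are the 6 with an adjusted p under 0.05; all of them (Slc6a4 and Maoa in embBE mice at both ages, Maob in embBE mice at P4 and Maoa in controls at P4) lie to the right of 0.

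Between P0 and P4 the signal of Htr7 went up in VB of embBE mice, and no other member passed the test. With limma over the 12 arrays of a nucleus and an adjusted p under 0.05, Htr7 was the 1 gene of 8 called in VB of embBE mice (3.42% of all genes were called). None was called in VB of controls (3.78% of all genes), in dLGN of embBE mice (1.02%) or in dLGN of controls (0.561%), where 4, 1 and 2 of the 8 had an unadjusted p under 0.05. Of all 18194 genes, 3481, 2128 and 1752 had such a p in these 3 comparisons. In VB all 8 genes of embBE mice and 7 of the 8 of controls had a positive difference, with a median of 0.42 in each (all genes -0.04 in embBE mice and -0.03 in controls). The second probe sets did not share this: in VB that of Htr1a gave -0.16 in embBE mice and -0.15 in controls, that of Htr1b -0.04 and -0.01, and that of Maoa -0.27 and 0.13. In dLGN the medians over the 8 genes were 0.06 in embBE mice and 0.02 in controls.

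Htr7 had 9.67, 10.004 and 9.34 in VB of embBE mice at P4, against 8.57, 8.61 and 8.52 at P0. The P0 arrays lay close together and below all P4 arrays. The difference was 1.10 (SE 0.20, a 2.15-fold signal; adjusted p = 0.0102), and without VB P0 array 39_4 the adjusted p was 0.0529. In VB of controls Htr7 had 9.59, 8.99 and 9.57 at P4, against 8.48, 8.73 and 9.01 at P0, a difference of 0.64 (SE 0.20; adjusted p = 0.0944) with overlapping groups. In dLGN it differed by 0.07 in embBE mice (SE 0.21) and 0.32 in controls (SE 0.25). The change in embBE mice was 1.03 larger in VB than in dLGN (SE 0.31, unadjusted p = 0.003, adjusted p = 0.591), so it is not shown to be particular to VB. The dim second probe set of Htr7 differed by 0.20 in VB of embBE mice (SE 0.13; adjusted p = 0.497). Of the 11 astrocyte and radial glia markers, 4 were called higher at P4 in VB of embBE mice (median 0.55) and 4 in VB of controls (median 0.43), and their part in the Htr7 difference was not tested.

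The uptake transporter had a positive difference with age in every group without passing the test. Slc6a4 differed by 0.52 in VB of embBE mice (SE 0.24; adjusted p = 0.297), 0.73 in VB of controls (SE 0.24; adjusted p = 0.118), 1.09 in dLGN of embBE mice (SE 0.35; adjusted p = 0.196) and 1.29 in dLGN of controls (SE 0.42; adjusted p = 0.271). P4 arrays lay above all P0 arrays in 3 of these 4 comparisons and overlapped in VB of controls. The share of all genes that stood apart in this way was not counted. Slc18a2, by contrast, differed by at most 0.15 in any of the 4, with an SE of 0.25 to 0.33. Htr1b differed by 0.67 in VB of embBE mice (SE 0.25; adjusted p = 0.194) and 0.75 in VB of controls (SE 0.25; adjusted p = 0.121), against 0.19 and 0.03 in dLGN. Maob differed by 0.59 in VB of controls (SE 0.22; adjusted p = 0.17) and by 0.02 in VB of embBE mice, whose P0 signal was already 6.89. Htr1a differed by 0.31 in VB of embBE mice (SE 0.10; adjusted p = 0.11), with no overlap between ages.

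The largest change with age in size was that of Htr2c in dLGN of controls, with 5.05, 5.14 and 4.57 at P4, against 7.29 and 7.28 at P0. The difference of -2.37 (SE 0.52, unadjusted p = 7.0e-04, adjusted p = 0.084) rests on 2 P0 arrays. In dLGN of embBE mice it had 5.37, 6.92 and 4.81 at P4, against 6.69, 5.59, 7.10 and 6.48 at P0, and the groups overlapped (-0.76, SE 0.44). The high P4 array, 36_2, had low Xist, and the VB array of the same number was also the highest of its group (7.63, against 6.14 and 6.11). With the Xist class of each array in the fit, the control difference was -2.03 (unadjusted p = 0.014). The second probe set of Htr2c ranged from 3.47 to 4.11 over all arrays and gave 0.06 (SE 0.16) for the same comparison.

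**Figure D4:**
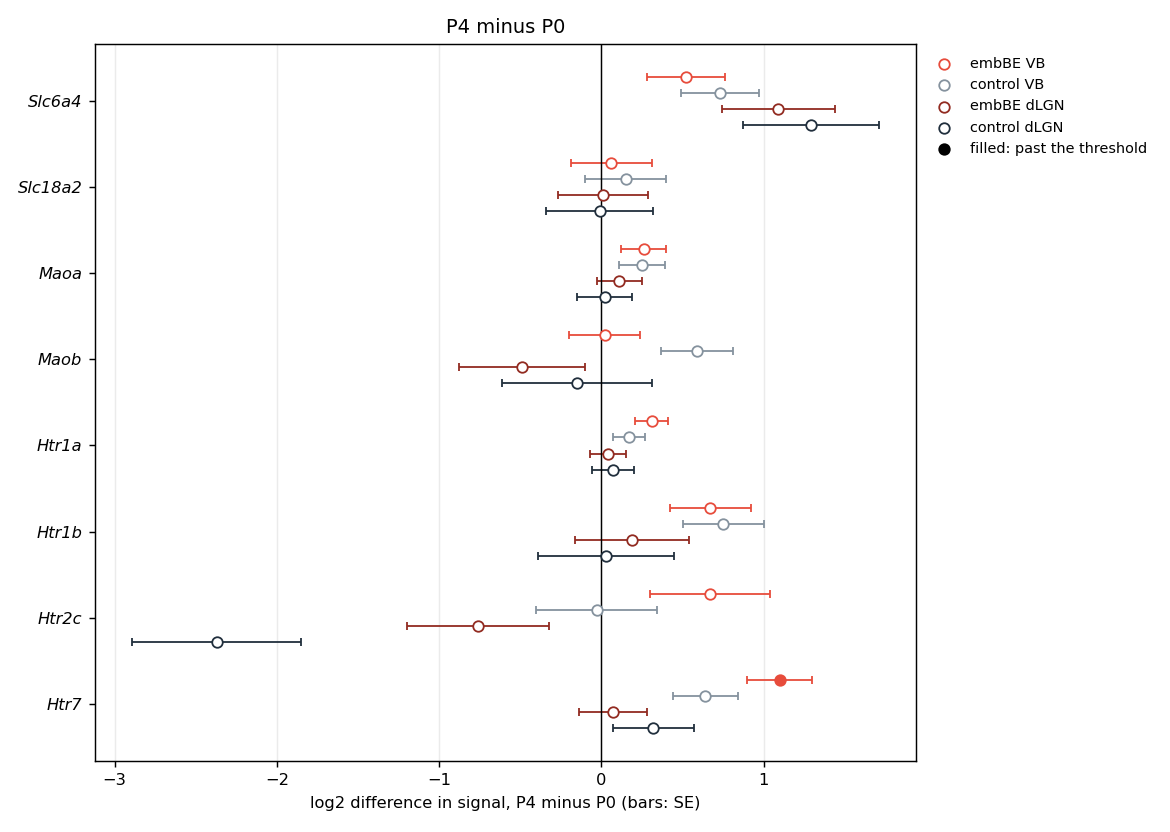
Difference in log2 signal, P4 minus P0 (horizontal axis), for the 8 genes in VB and dLGN of embBE and control mice, with the SE of the limma fit. The filled point is Htr7 in VB of embBE mice (1.10), the only one with an adjusted p under 0.05; Htr2c in dLGN of controls (-2.37) is farthest from 0.

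In the fit over the 12 arrays of a nucleus, loss of both eyes before birth did not bring any of the 8 genes past the study's threshold in either nucleus at either age. That threshold asks for a fold of at least 1.5 with an unadjusted p under 0.05. It was met by 0.726% of all genes in VB at P0, 0.159% in VB at P4, 0.445% in dLGN at P0 and 0.198% in dLGN at P4. At an adjusted p under 0.05 no gene of the array was called in any of the 4 comparisons (limma), and the methods' t-test also called none of the 8 genes. An unadjusted p under 0.05 was found for Maob in VB at P0 and for Htr7 in dLGN at P4 (limma). Of all 18194 genes, 1219 and 236 had such a p in these comparisons. A p above the threshold does not show that the genes were alike. SEs of up to 0.50 leave room for changes of 1.5-fold (0.58 on the log2 scale) and for larger ones. The estimates for Htr2c in dLGN were themselves 1.77-fold at P0 and 1.72-fold at P4.

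In VB at P0 the differences ran from -0.42 (Htr2c, SE 0.37) to 0.56 (Maob, SE 0.22, unadjusted p = 0.0269). Maob had 7.25, 6.76 and 6.65 in embBE arrays, against 5.90, 6.73 and 6.35 in controls, and the groups overlapped by 1 array. It lay just under the threshold and passed it under cyclic loess (0.62), with median centring (0.61), with a sex covariate (0.67), with the first number as a fixed block (0.64) and without embBE array 39_3 or 39_4 (0.62 and 0.68). Within first numbers the difference was 0.93 for 35 and 0.36 for 39. Slc18a2 had 9.46, 9.48 and 9.30 in embBE arrays, against 8.64, 9.49 and 8.75 in controls (0.45, SE 0.25), and Slc6a4 had 9.64, 9.90 and 10.26, against 9.05, 9.67 and 9.92 (0.39, SE 0.24). Htr1b differed by 0.41 (SE 0.25). Control array 35_2 held the highest control signal of Maob, Slc18a2 and Htr1b, and without it these 3 passed the threshold, at 0.76, 0.72 and 0.66. Its beta-actin gap was 2.195, near the 2.25 to 2.55 of the embBE arrays. The controls that remain had wider gaps, 4.29 (35_1) and 2.98 (39_5). Array 35_1 held the lowest control signal of the same 3 genes. The part of RNA quality in these differences was not tested. In VB at P4 the differences ran from -0.09 (Maoa, SE 0.14) to 0.36 (Slc18a2, SE 0.25).

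In dLGN at P0 the differences ran from -0.82 (Htr2c, SE 0.50) to 0.28 (Maob, SE 0.44). Htr2c had 6.69, 5.59, 7.10 and 6.48 in embBE arrays, against 7.29 and 7.28 in controls, the 1 comparison of embBE with control in which the groups did not overlap. It rests on 2 control arrays. How many of all genes did not overlap was not counted, so the lack of overlap is a description only. In dLGN at P4 they ran from -0.53 (Slc6a4, SE 0.37) to 0.78 (Htr2c, SE 0.47). Htr7 had 9.10, 9.06 and 8.92 in embBE arrays, against 9.89, 9.65 and 9.03 in controls (-0.50, SE 0.23, unadjusted p = 0.0481), and it was lower in embBE in each of the 3 first numbers, with differences of -0.79, -0.60 and -0.11. Control array 40_1, which had the lowest SD of the P4 dLGN arrays, held the lowest control value of both Htr7 and Slc6a4. Without it both passed the threshold, at -0.75 and -0.93. Slc6a4 was at -0.11 without control array 24_2, the dLGN array with the lowest beta-actin gap (2.205).

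No effect of eye loss was called as different between ages or nuclei for any of the 8 genes at an adjusted p under 0.05 (limma; 0% of all genes in each of the 4 contrasts). Unadjusted values were lowest for Htr2c and Htr7. The embBE effect on Htr2c in dLGN was higher by 1.61 at P4 than at P0 (limma, SE 0.68, unadjusted p = 0.0365, adjusted p = 1). That on Htr7 at P4 was higher by 0.79 in VB than in dLGN (limma, SE 0.32, unadjusted p = 0.022, adjusted p = 0.977). No change between ages was called as different between nuclei, where 0.055% of all genes passed in embBE mice and 0.022% in controls. Of the 8, 2 had an unadjusted p under 0.05 in embBE mice (Htr2c and Htr7) and 1 in controls (Htr2c). Such a p was found for 895 of all 18194 genes in embBE mice and 1248 in controls.

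**Figure D5:**
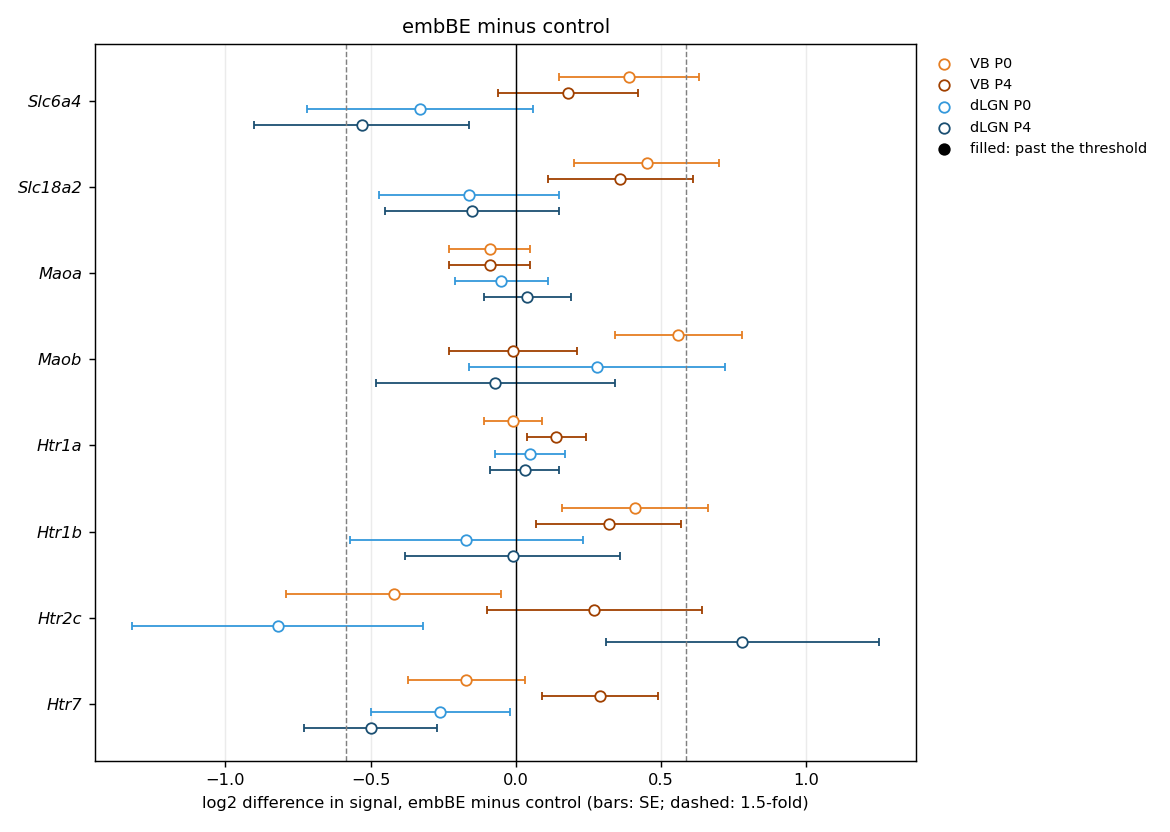
Difference in log2 signal, embBE minus control (horizontal axis), for the 8 genes in VB and dLGN at P0 and P4, with the SE of the limma fit and dashed lines at 1.5-fold (0.58). All 32 points are open: none combines a 1.5-fold difference with an unadjusted p under 0.05.

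The wider serotonin pathway was read from 6 lists with 63 measured genes of 68 listed. Over the 12 comparisons these genes gave 18 calls from 13 genes, 10 higher and 8 lower in the group named first, and none of them in a comparison of embBE with control. That is 2.38% of 756 possible calls, near the 2.58% of calls over all genes in the same comparisons. Of 9 other serotonin receptors 1 was called, Htr6, a Gs-coupled receptor that averaged 4.08 in VB, against 4.71 in dLGN, in embBE mice at P4 (-0.63, SE 0.17; adjusted p = 0.0262), a signal within the range of the genes not known to be used in brain. Of 12 genes of serotonin synthesis and raphe identity 1 was called, Qdpr, which regenerates the cofactor of the hydroxylases. It averaged 12.74 in VB, against 13.10 in dLGN, in embBE mice at P0 (-0.36, SE 0.09; adjusted p = 0.0244). None of 5 other monoamine transporters was called. Of 3 genes of breakdown after the oxidases 1 was called: Aldh1a1, an aldehyde dehydrogenase, averaged 6.00 at P4 in VB of embBE mice, against 3.85 at P0 (2.15, SE 0.41; adjusted p = 0.0148), both means within that range too.

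Proteins that carry receptor signals gave 10 calls from 7 of 29 genes, 2.87% of the possible calls, also near the 2.58% over all genes. Rgs4, which speeds the shut-off of Gi and Gq proteins, averaged 10.02 in VB, against 8.44 in dLGN, in embBE mice at P0 (1.58, SE 0.36; adjusted p = 0.0107) and 10.87 in VB, against 9.44, at P4 (1.43, SE 0.38; adjusted p = 0.0266). It also rose with age in VB of controls (10.84 at P4, against 9.74 at P0; 1.09, SE 0.27; adjusted p = 0.0451). Adcy8, an adenylyl cyclase stimulated by calcium, rose with age in VB of embBE mice (1.34, SE 0.30; adjusted p = 0.0285) and of controls (1.18, SE 0.30; adjusted p = 0.0496). Both cyclase genes called between nuclei differed in embBE mice at P0, Adcy1 by 0.63 (SE 0.13; adjusted p = 0.00609) and Adcy5 by -0.58 (SE 0.15; adjusted p = 0.0249), in opposite directions. Kcnj3, a potassium channel subunit opened by Gi-coupled receptors, averaged 7.46 in VB, against 6.04 in dLGN, in embBE mice at P4 (1.42, SE 0.33; adjusted p = 0.0115). That dLGN mean lay within the range of the genes not known to be used in brain. Gnaq, the G protein downstream of Htr2c, fell with age in dLGN of controls (11.27 at P4, against 12.11 at P0; -0.84, SE 0.15; adjusted p = 0.0362), and Arrb2, an arrestin, was lower in VB of embBE mice at P0 (-0.45, SE 0.13; adjusted p = 0.0452).

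Of 5 genes whose proteins are known to act on the transporter or on Htr1b, 3 were called, all between nuclei. They gave 5 of 60 possible calls over the 12 comparisons (8.33%), where all genes gave 2.58%. Over the 4 comparisons of nuclei alone these were 5 of 20 (25%), where all genes gave 5.17%. S100a10 and Itgb3 were each called in both embBE mice and controls, so the 5 calls come from 3 genes. S100a10, a partner that brings Htr1b to the membrane, was higher in VB at P0, by 0.42 in embBE mice (SE 0.11; adjusted p = 0.0269) and 0.56 in controls (SE 0.13; adjusted p = 0.0327). Itgb3, an integrin subunit that associates with the transporter, was lower in VB at P4, by -0.41 in embBE mice (SE 0.12; adjusted p = 0.044) and -0.57 in controls (SE 0.12; adjusted p = 0.00924). Its group means (5.79 to 6.36) lay within the range of the genes not known to be used in brain. Its calls, which are among the 5, thus rest on signals that could not be set apart from background. Prkg1, a cyclic GMP-dependent kinase that acts on the transporter, was lower in VB of embBE mice at P0 (-0.54, SE 0.16; adjusted p = 0.0445). Most of these calls lie close to the threshold, and of the 18 only that of Adcy1 was kept under every setting tried.

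The genes whose signal ran most like each member over the 24 arrays were found by Pearson's r, as a description only, since all genes share the same arrays, nuclei, ages and RNA quality. For Slc6a4 they were Igfbp2 (r = 0.952), Kcnk2 (0.949) and Txn1 (0.945). For Maoa they were Cnih3 (0.942), Neto1 (0.940) and Lhfpl2 (0.927), and for Maob Slitrk6 (0.901), Rab40b (0.895) and Fstl5 (0.890). For Slc18a2 they were Stox1 (0.872), Cpne8 (0.871) and Wnt9b (0.868). Among the receptors, Htr1b ran most like Pip4p2 (0.956), Htr7 like Cerox1 (0.852), Htr1a like Nat8f5 (0.811) and Htr2c like Slc7a14 (0.803). No other member was among the 3 nearest genes of any member.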

How the data were processed

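RNA from microdissected VB and dLGN was amplified and hybridized to 24 Affymetrix mouse expression arrays, 1 per sample. The authors deposited log2 signals that they had normalized with RMA, for which no version is given in the sources used here. These values were used as they are, without a filter on dim probe sets. Each of the 34958 probe sets with 1 symbol was assigned to its gene, with symbols updated through Entrez numbers, and 932 with several symbols and 9211 with none were left out. The members, the pathway and marker lists and the tests were chosen with earlier results of these data known.

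Treatments and ages were compared 2-sided with limma (version 3.58.1, lmFit and eBayes, under R version 4.3.3) over the 12 arrays of a nucleus. Nuclei and differences between effects across nuclei were compared over the 24 arrays with the label number as a random block (consensus correlation -0.02). Comparisons of embBE with control used the study's threshold, a fold of at least 1.5 and an unadjusted p under 0.05, and the others a Benjamini-Hochberg adjusted p under 0.05 over 18194 genes. All 8 members were named, with the pathway genes that were called. The fits were tested on simulated data. Labels do not say that arrays of a group came from separate litters, so p-values measure the spread between these arrays, and the number of arrays limits the precision. Promoter windows were matched by symbol in RefSeq (7 of 8 members). Figures were drawn with matplotlib 3.10.9.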

Additional observations from a re-analysis of the deposited data

Results flagged for a closer look

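In dLGN of embBE mice at P0, the 1 group of 4 arrays, 2 of the 13 probe sets of the serotonin genes had an array far from the others. Chance alone marks about 1 in 20 such sets. For Maob, array 39_3 had 4.95, against 6.50, 6.78 and 6.56 on the other arrays, a gap of 0.845 of the whole range. That array also had the lowest SD over all probe sets of the 24 (2.17). Without it the embBE difference of Maob in dLGN at P0 was 0.69 (unadjusted p = 0.0265), in place of 0.28. For Htr7, array 39_4 had 9.31, against 8.86, 8.78 and 8.86, a gap of 0.849 of the range.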

How the results depend on the processing

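Of 8 genes, 0 were called for embBE against control in VB at P0, but 1 under cyclic loess, median centring, a sex covariate or the first number as a replicate block (Maob in each) or array weights (Htr2c), and 0 to 3 with each array left out (3 without control 35_2). In dLGN at P0 the count was 1 with only the 2 groups in the fit or without the 2 arrays of lowest SD in each nucleus, and 0 to 1 with arrays left out (1 without embBE 39_3). In dLGN at P4 it was 2 without the low-SD arrays, 1 with array weights and 0 to 2 with arrays left out (2 without control 40_1, 1 without embBE 40_3). It stayed 0 in VB at P4. Between ages, the 1 call in VB of embBE mice became 2 under cyclic loess and 4 with array weights or without the low-SD arrays, and 0 to 1 with arrays left out. In VB of controls it was 3 without the low-SD arrays, 2 with array weights and 0 to 3 with arrays left out (3 without P4 array 36_3, 1 without P0 array 35_2). In dLGN array weights gave 1 in embBE mice and 2 in controls, and all 24 arrays in the fit gave 1 in controls. Between nuclei, the 2 calls in embBE mice at P0 became 1 under cyclic loess, with only the 2 groups or with the label number as a fixed replicate block, and 1 to 2 with arrays left out. With probe sets averaged, Htr7 was called there too, as lower in VB (limma, adjusted p = 0.0292). The 0 in controls at P0 became 1 under cyclic loess, 2 without the low-SD arrays, 3 with array weights and 0 to 1 with arrays left out (1 without VB 35_1). The 3 in embBE mice at P4 became 2 with the label number as a fixed replicate block or a sex covariate (Maob was lost in both), 4 under cyclic loess or median centring, 5 with only the 2 groups, 6 without the low-SD arrays, 7 with array weights and 1 to 2 with arrays left out. The 1 in controls at P4 was Htr2c in place of Maoa with only the 2 groups, and became 2 with the fixed replicate block or without the low-SD arrays, 6 with array weights and 1 to 2 with arrays left out (2 without dLGN 24_2). Array weights also gave 1 gene, Htr7, whose change with age differed between nuclei. The sex covariate, the low-SD arrays and array weights were chosen after seeing the data; weights ran from 0.264 to 6.84. The share of all genes called was not counted under the alternatives named here. These counts therefore cannot be read as particular to the 8 genes. The cause of these changes was not tested.

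Of 74 differences of named genes that passed a threshold in some setting, had an unadjusted p under 0.05, were at least 1.5-fold or bounded the range of an embBE comparison, 5 changed sign: Htr2c in VB at P0 (embBE, 0.07 with a sex covariate), the change of that effect with age in VB (-0.05, same setting), Maob in dLGN at P0 (embBE, -0.18 to 0.73 with arrays left out), and, with probe sets averaged, Qdpr (0.22) and Htr1a (-0.04) between nuclei of embBE mice at P0 and P4. Of all 32 embBE differences of the 8 genes, most of them not among those 74, 19 changed sign under at least 1 alternative, none of them larger than 0.42. The 7 differences called among the 8 genes kept their direction under all alternatives run.

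The label numbers are not shown to pair the arrays. Deviations of VB and dLGN arrays with 1 number correlated from -0.552 to 0.718, over 0.1 in 3 of 11, and those of embBE and control arrays at P4 with 1 first number from -0.195 to 0.219 in VB and 0.018 to 0.758 in dLGN, although the Xist class matched in 11 of 11 numbers. Left-out fits kept the block correlation of the full fit. Signals of Htr1a, Maob and Htr2c near background limit what their differences show.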
